A study of Mus musculus with 8 samples.

Results

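The comparison described here sets mouse embryonic stem cells that lack Dgcr8 and received siRNAs against Mbnl1 and Mbnl2 beside wild-type (WT) cells. It uses 4 of the 8 libraries of the series, 2 per group, and leaves the mock-transfected knockout (KO) libraries out of the contrast. The knockdown group carries the genotype Dgcr8 KO and was given siMbnl1/2 at 50 nM, 16 hours after plating; it is called siMbnl KO below. The WT group is labelled as control, and its columns are named as mock transfections of V65. Both groups are labelled as line V6.5, strain 129/C57BL/6, and were kept in LIF and serum on either gelatin or irradiated fibroblasts. The KO mock columns carry the name ES1 instead, so WT and knockout cells may not descend from 1 line, and a difference between lines cannot be told apart from the loss of Dgcr8. The contrast likewise holds the knockout and the siRNA together, and no library of WT cells with the siRNA, or of knockout cells with a control siRNA, is among those analysed here. Genes with a mean of at least 1 FPKM over the 4 libraries were compared, which were 12860 of 49641 entries. FPKM is the fragment count of a gene divided by its transcript length and by the mapped fragments of its library. The effect is siMbnl KO minus WT as a difference of mean log2(FPKM + 1), on which changes of low genes are understated.

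Dgcr8 holds the primary transcript of a microRNA for cleavage by Drosha, and without it canonical microRNAs are not made. In mouse embryonic stem cells the most abundant of these belong to the miR-290 family, which shares its seed with the miR-302 family and holds down inhibitors of the G1 to S transition. Muscleblind-like proteins bind RNA and move splicing toward the patterns of differentiated cells. The title of the study names opposing roles of the family and these proteins, and the contrast asks what remains different from WT when the knockout is combined with siRNAs against them.

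The mature sequences of 5 family members are shown because the site analysis below uses their common seed, bases 2 to 8, in capitals. They come from RefSeq (GRCm38.p6); the first 3 lie on chromosome 7 and the last 2 on chromosome 3.
miR-291a-3p: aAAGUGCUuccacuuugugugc
miR-294-3p: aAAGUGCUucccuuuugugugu
miR-295-3p: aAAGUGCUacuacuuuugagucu
miR-302b-3p: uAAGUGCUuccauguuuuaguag
miR-302d-3p: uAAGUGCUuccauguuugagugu
The matching site in a messenger RNA reads AGCACTT. Sites with 8 bases on each side are printed below for 3′ UTRs of genes on which the results turn, with the site in capitals, and positions count from 1 at the first base of the 3′ UTR. Cdkn1a, the cell cycle inhibitor p21, and Lats2, a Hippo pathway kinase, held 2 sites each. Irf2, an interferon regulatory factor, Lefty1, an inhibitor of Nodal, and Mbnl2 held 1 each, while Mbnl1 and Mbnl3 held none.
Cdkn1a, position 435: acctgaatAGCACTTtggaaaaa
Cdkn1a, position 1107: ggtgtcaaAGCACTTagtgggtc
Lats2, position 195: atggaaagAGCACTTattttgtg
Lats2, position 294: tatctgatAGCACTTgtccacag
Irf2, position 442: tatcttgaAGCACTTacaatagg
Lefty1, position 238: gtatgcgaAGCACTTacatgtat
Mbnl2, position 2543: gctataacAGCACTTcacagaac

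The summed FPKM of the 8 libraries lay between 473746 and 571508, and 12386 to 12860 genes per library reached 1 FPKM. Read counts are unknown, so no counting interval can be given. Replicates correlated across genes with r = 0.986 in WT and 0.971 in siMbnl KO, and the median gene's SD within a group was 0.047 in WT and 0.121 in siMbnl KO on the log2 scale. The labels do not state separate cultures for replicates, and the p-values rest on a spread that may be technical. The stem cell markers Pou5f1 (between 723 and 1045 FPKM), Sox2, Nanog, Zfp42, Esrrb, Dppa5a and Utf1 were high in all 4 libraries, from 134 FPKM (Sox2 in WT) to 5097 FPKM (Dppa5a in siMbnl KO).

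The deleted gene was low, and neither targeted gene was called lower than in WT. Dgcr8 (chr16:18253948-18289249 in mm10, minus strand) was at 22.9 and 21.9 FPKM in WT and 7.896 and 6.58 in siMbnl KO. It fell by 1.51 ± 0.10 (SE; adjusted p = 1.94e-05 by limma); the remaining signal is a gene-level value and does not show which exons it comes from. Mbnl2 (chr14:120275669-120431697), a muscleblind splicing regulator, was at 12.8 and 12.9 FPKM in WT and 11.2 and 14.3 in siMbnl KO. The siMbnl KO values lie on either side of the WT pair, and the difference was -0.020 ± 0.12 (adjusted p = 0.9). In the mock KO libraries Mbnl2 stood at 24.7 and 28.6 FPKM, and the difference of siMbnl KO from those was -1.01 ± 0.12 (adjusted p = 0.0193). When libraries were weighted by the spread of their group, no gene was called between siMbnl KO and mock KO, Mbnl2 included, which holds for each call against mock KO below. Mbnl1 (chr3:60472830-60629750), a paralog of Mbnl2, was at 4.799 and 5.12 FPKM in WT, 6.84 and 6.76 in siMbnl KO and 8.003 and 9.42 in mock KO. It was higher than in WT by 0.39 ± 0.10 (adjusted p = 0.0113), a call lost under quantile normalization and without WT replicate 1 (adjusted p up to 0.345). The siMbnl KO values of Mbnl1 are above both WT values and below both mock KO values. Mbnl3 on chromosome X, which was not targeted, fell from 1.62 and 1.85 to 0.644 and 0.628 FPKM (-0.74 ± 0.13, adjusted p = 0.00157). Relative to WT, then, Mbnl1 was higher, Mbnl3 was lower and Mbnl2 did not differ beyond the spread of its libraries.

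Of the 12860 genes, 7802 (60.7%) were called at an adjusted p under 0.05, 4204 (32.7%) higher and 3598 (28%) lower in siMbnl KO. The excess of higher calls turned round under quantile normalization (3521 higher, 4013 lower) and among genes with a mean of at least 5 FPKM (2814 higher, 3004 lower). The median of all genes was 0.04, and -0.05 under quantile normalization. A difference of at least 2-fold was more often an increase: 1246 genes (9.69%) rose and 478 (3.72%) fell that far. With so many genes called, a call by itself says little about any one list, and the counts below are to be read against these shares. Leaving out WT replicate 1 or 2 gave 5893 and 5924 calls. Of 180 long intergenic RNAs 63 rose and 40 fell, whereas processed pseudogenes were lower in 151 and higher in 36 of 492. How multi-mapping reads were shared between pseudogenes and parents is not given in the sources used here.

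**Figure D1:**
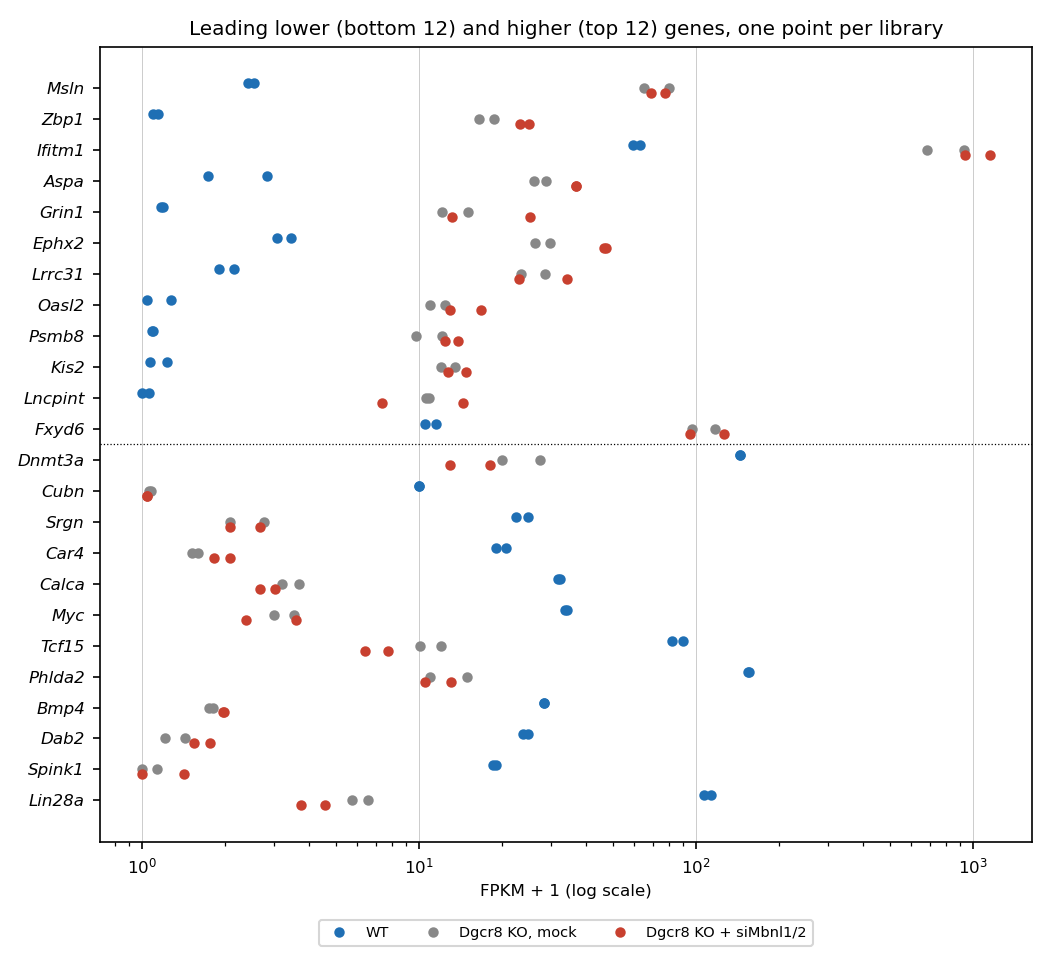
FPKM + 1 on a log axis for the 12 largest decreases (below the dotted line) and 12 largest increases (above it) among genes the naming rule admits, one point per library. WT, mock KO and siMbnl KO have 2 points each. The naming rule required the siMbnl KO points to lie apart from the WT points, which held for all 7802 called genes. Msln and Lin28a show the largest differences from WT, 4.87 and -4.73.

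Of the 12 genes that rose most, those other than Ifitm1 and Fxyd6 were below 3 FPKM in both WT libraries. Msln, the surface glycoprotein mesothelin, was at 1.55 and 1.42 FPKM in WT and 76.3 and 67.7 in siMbnl KO, an increase of 4.87 ± 0.11 (adjusted p = 6.83e-07). The innate sensor Zbp1 was at 0.141 and 0.0921 in WT and 23.9 and 22.2 FPKM in siMbnl KO. Ifitm1, an interferon-induced membrane protein already present in WT at 58.3 and 61.6 FPKM, reached 937 and 1148. The mock KO libraries were similar for these genes: Msln was at 78.7 and 63.7, Zbp1 at 17.7 and 15.5 and Ifitm1 at 926 and 684 FPKM. Aspa, which cleaves N-acetylaspartate, was at 0.732 and 1.84 FPKM in WT and 35.99 and 35.9 in siMbnl KO. Grin1, a subunit of the NMDA glutamate receptor, went from 0.174 and 0.191 to 12.1 and 24.2 FPKM, with the siMbnl KO libraries well apart from each other. Ephx2, the soluble epoxide hydrolase, was at 2.45 and 2.06 in WT, 28.8 and 25.2 in mock KO and 46.4 and 45.7 FPKM in siMbnl KO. It is one of the leading genes that also differed between the knockout groups (0.75 ± 0.10, adjusted p = 0.0231). Lrrc31 rose by 3.79 and Fxyd6, a regulator of the sodium pump, by 3.31. Oasl2, of the oligoadenylate synthetase family, rose by 3.68 and the immunoproteasome subunit Psmb8 by 3.59. The noncoding transcripts Kis2 (by 3.58) and Lncpint (by 3.32) complete the 12. Lncpint was listed at 0 in 1 WT library and at 0.0647 FPKM in the other, against 6.36 and 13.4 in siMbnl KO.

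The largest decrease was that of Lin28a, which blocks let-7 maturation. It was at 106 and 112 FPKM in WT and 3.57 and 2.75 in siMbnl KO, a change of -4.73 ± 0.11 (adjusted p = 6.83e-07). All 4 knockout libraries of the mock and siMbnl groups were below 6 FPKM, with mock KO at 4.73 and 5.52. With the miR-294 mimic Lin28a stood at 94.1 and 96.3 FPKM, near WT. Myc, the growth-promoting transcription factor, fell from 32.8 and 33.3 to 2.61 and 1.37 FPKM (-3.54 ± 0.19, adjusted p = 8.1e-06). Dnmt3a, a de novo DNA methyltransferase, fell from 144 and 143 to 11.95 and 17.03 FPKM. Bmp4, a ligand that acts through Smad1 and its relatives, fell from 27.3 and 27.4 to 0.987 and 0.956, and Dab2, an endocytic adaptor of the endoderm, from 22.8 and 23.7 to 0.759 and 0.545 FPKM. Phlda2, an imprinted gene that restrains placental growth, fell by 3.73, and Tcf15, a transcription factor that primes stem cells for differentiation, changed by -3.61. The peptide gene Calca (-3.50), the protease inhibitor Spink1 (-3.98), the carbonic anhydrase Car4 (-3.35), the proteoglycan Srgn (-3.32) and the endocytic receptor Cubn (-3.26) complete the 12.

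Published targets of the stem cell microRNAs were mostly higher. Of 21 such genes, all of which passed the filter, 15 rose and 1 fell (2 without siMbnl KO replicate 2), with a median of 0.74 against 0.04 for all genes. Irf2 was at 0.133 and 0.517 FPKM in WT and 7.93 and 6.74 in siMbnl KO (mock KO 9.76 and 9.02). Lefty1 rose from 10.03 and 9.27 to 80.5 and 93.3 FPKM, and Lats2 from 1.74 and 1.65 to 12.5 and 10.97. Tgfbr2, a TGF-beta receptor with 3 sites, rose by 1.18, and the phospholipase Ddhd1, also with 3 sites, by 1.79. Rhoc, a small GTPase with 1 site, was at 76.4 and 69.6 in WT and 53.8 and 65.2 FPKM in siMbnl KO and did not pass the test (adjusted p = 0.0716).

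Inhibitors of the G1 to S transition mostly rose, while cyclins, their kinases and E2F factors moved both ways. Of 18 inhibitors and pocket proteins, 15 rose and 2 fell (1 without WT replicate 1, WT replicate 2 or siMbnl KO replicate 1), with a median of 0.90. Cdkn1a was at 25.9 and 24.9 FPKM in WT, 64.4 and 57.1 in mock KO and 112 and 106 in siMbnl KO, 3 ranges that do not overlap. It rose over WT by 2.06 ± 0.085 (adjusted p = 3.56e-06) and over mock KO by 0.84 ± 0.085 (adjusted p = 0.013). The retinoblastoma gene Rb1, whose 3′ UTR holds no site, rose from 2.804 and 2.89 to 14.5 and 13.7 FPKM. Its relatives Rbl1 and Rbl2, with 1 site each, rose by 0.60 and 0.71. Cdkn1c, an imprinted inhibitor, went the other way, from 36.7 and 32.6 to 5.51 and 6.67 FPKM. Among 20 cyclins, kinases and E2F factors, 6 rose and 10 fell (median -0.24, and -0.11 over the 18 that do not lie on chromosome 8). Over all 20 the median was -0.139 without siMbnl KO replicate 2 and -0.085 under quantile normalization. Ccne1, cyclin E1, fell from 109 and 111 to 39.2 and 36.3 FPKM, and E2f8, a repressor of E2F targets, changed by -1.30. Cyclin D2, Ccnd2, rose from 4.84 and 4.77 to 22.2 and 19.8 FPKM. In the Myc network of 13 genes, 7 rose and 4 fell; without WT replicate 1 the second count was 2. The Myc antagonists Mxd4 (1.36), Mxd1 (0.84) and Mnt (0.78) rose while Myc fell.

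Messages with a match to the stem cell microRNA seed stood higher as a class. Among 11574 tested genes with an annotated 3′ UTR the median difference was 0.052, with 34.3% called higher. The 9547 genes with no AGCACTT had a median of 0.012, the 1637 with 1 site 0.223 and the 390 with 2 or more 0.342. Called higher were 31.7%, 45% and 52.6% of them. The site of the miR-17 family, GCACTTT, overlaps it by 6 letters, and 942 genes hold both; the 1664 genes with at least 1 such site had a median of 0.308. Genes with at least 1 site of the let-7 family, CTACCTC, had a median of 0.117, and those of the miR-15 and miR-26 families 0.108 and 0.168. For the miR-130 family the median was 0.234, with 46.2% called higher. That is close to the 0.253 and 46.5% of genes with at least 1 miR-290 site. Sites of microRNAs known from other tissues also marked genes with a median above that of all genes. It was 0.149 for the miR-1 family, 0.177 for miR-142, 0.126 for miR-223 and 0.114 for the miR-208 family. Genes with 2 or more of these sites stood higher again, at 0.249 for the miR-1 family (158 genes, 46.2% called higher), 0.386 for miR-142 (71 genes, 56.3%) and 0.163 for miR-223 (117 genes, 40.2%). The miR-142 class with repeated sites was thus above that of miR-290. Long 3′ UTRs hold more sites of any kind, so genes were also split into 4 equal bins of 3′ UTR length. From the shortest to the longest bin, genes with a miR-290 site had medians of 0.162, 0.203, 0.299 and 0.250, against -0.109, -0.006, 0.067 and 0.143 without. For the miR-1 family the corresponding medians were 0.081, 0.072, 0.116 and 0.192 with a site and -0.105, 0.008, 0.096 and 0.178 without. For miR-223 they were -0.065, -0.016, 0.105 and 0.190 with a site and -0.103, 0.015, 0.101 and 0.183 without. In each bin the gap between genes with and without a site was larger for miR-290 than for the other two, although in the shortest bin the miR-1 class, with 65 genes, also stood well above the rest. The miR-142 and miR-130 classes were not split by length. In all 3 classes without a site the median rose with length. A seed match is a description of letters, not of binding.

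**Figure D2:**
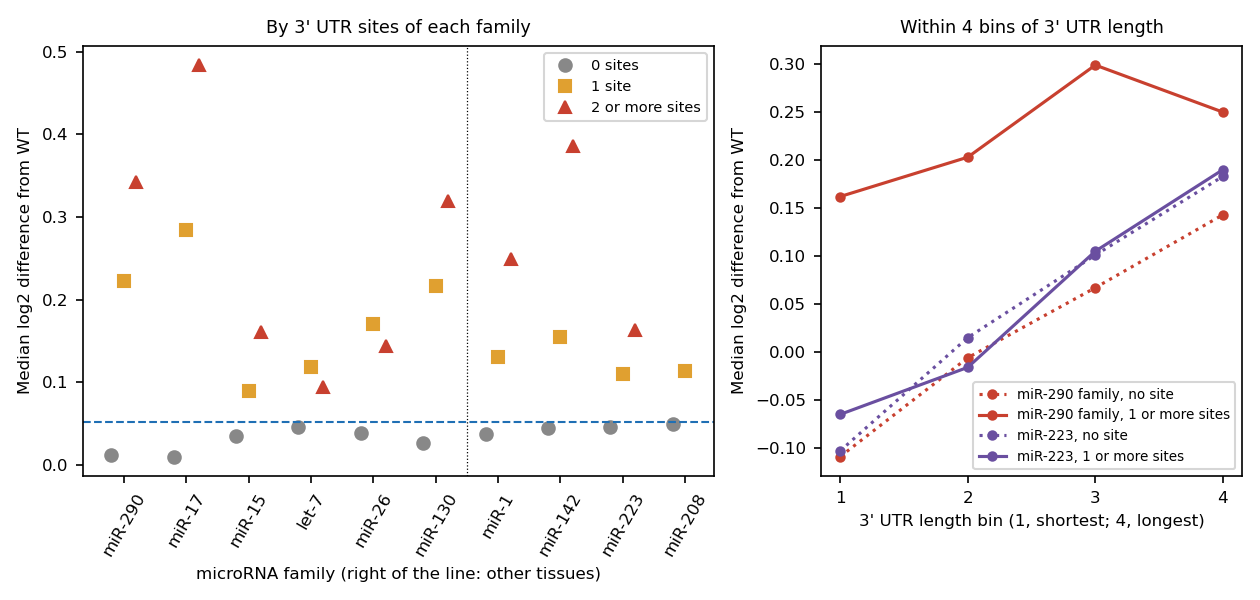
Left, median siMbnl KO minus WT difference (log2) of genes with 0, 1 or 2 or more 3′ UTR sites of each microRNA family; the dashed line is the median of all genes with a 3′ UTR, 0.052, and a class under 20 genes is not drawn. Right, medians with and without a site within 4 bins of 3′ UTR length; genes with a miR-290 site run from 0.162 to 0.299, above those without in each bin.

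Silencing factors and the transcripts that host microRNAs changed in both directions. Of 19 genes for microRNA processing and silencing that passed the filter, of 20, 8 rose and 4 fell (5 rose without WT replicate 1 and under quantile normalization). The largest increase was Ago1, an Argonaute protein, from 9.69 and 9.899 to 32.1 and 34.6 FPKM, and Tnrc6b, which recruits deadenylases to Argonaute, rose by 1.26. Xpo5, the exporter of microRNA precursors, fell by 0.60. Drosha was at 40.1 and 40.8 FPKM in WT and 45.4 and 44.4 in siMbnl KO, which did not pass the test (adjusted p = 0.0666). Among 13 host transcripts of 20 that passed, 7 rose and 5 fell (3 fell without WT replicate 2). Mir17hg, the host of a miR-17 cluster, was at 16.1 and 16.1 FPKM in WT and 78.1 and 67.4 in siMbnl KO, and Mirg, the host of an imprinted cluster, at 12.7 and 11.4 in WT and 55.3 and 55.5 in siMbnl KO. Mir22hg rose by 1.36, whereas Sfmbt2, whose intron carries a large microRNA cluster, fell from 10.7 and 10.8 to 1.45 and 1.03 FPKM. Of the 23 genes of the list of muscleblind and other splicing regulators that passed, of 28, 9 rose and 6 fell, shares near those of all genes. Esrp1, an epithelial splicing regulator, rose from 4.79 and 4.697 to 12.6 and 10.2 FPKM, Elavl2, a neuronal RNA-binding protein, by 1.29, and the muscle and neuronal factors Rbm20 and Nova2 by 1.01 and 0.96.

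The pluripotency network remained expressed with changes in both directions. Of 31 genes 11 rose and 14 fell, and the median was -0.11; it was 0.04 under quantile normalization and -0.171 without siMbnl KO replicate 2, and without either WT replicate 8 fell. Nanog rose from 209 and 207 to 412 and 419 FPKM and Sox2 from 134 and 139 to 265 and 285. Pou5f1 fell by 0.44 ± 0.085 (adjusted p = 0.00277, and up to 0.191 over the alternatives). Klf2, a naive-state factor, rose from 44.8 and 44.9 to 174 and 180.4 FPKM although it lies on chromosome 8, and the surface molecule Pecam1 rose by 1.44. Gbx2, another naive-state factor, fell from 44.96 and 47.1 to 6.25 and 3.55 FPKM. Esrrb (160.0 and 156 against 139 and 169 FPKM) and Klf4 (61.9 and 62.1 against 48.7 and 66.6) did not pass the test. Among 15 genes of the primed epiblast, 5 rose and 6 fell, with a median of -0.31 (-0.176 and -0.144 without siMbnl KO replicate 1 and 2). The largest change was the decrease of Dnmt3a (-3.24), described above. Zic2 and Otx2, transcription factors of the epiblast and early embryo, rose by 2.34 and 1.91.

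Genes of the primitive and definitive endoderm were lower. Of 23, 16 passed the filter; 14 of these fell and none rose, with a median of -2.12. Gata6 was at 10.2 and 10.4 FPKM in WT and 0.226 and 0.2404 in siMbnl KO, and Sox17 at 8.43 and 8.41 in WT and 0.242 and 0.112 in siMbnl KO. Both encode transcription factors that specify endoderm. Gata4, another such factor, kept 2.26 and 2.83 FPKM against 12.04 and 11.6 in WT. The receptor Pdgfra fell from 6.83 and 6.26 to 0.298 and 0.219 FPKM. Mock KO was also low, with Gata6 at 0.126 and 0.183, Sox17 at 0.101 and 0.137 and Pdgfra at 0.392 and 0.236 FPKM. In bulk RNA fewer cells of a type and less RNA per cell cannot be told apart. Genes near 0 in siMbnl KO passed the filter through WT, so this count describes what WT expressed. Of 14 mesoderm markers only 5 passed, and 4 fell (2 without WT replicate 2 or siMbnl KO replicate 2); Mest fell by 0.75, and T and Mesp1, which define mesoderm, were below 0.3 FPKM in each library. Neuroectoderm markers were mixed: of 7 that passed, Ncam1 rose from 1.19 and 1.42 to 7.13 and 9.65 FPKM and Pax6 from 1.296 and 1.85 to 5.89 and 5.63. Tubb3 and Sox1 fell, and both lie on chromosome 8; the Sox1 call was lost without WT replicate 2 (adjusted p = 0.0701), and 4 fell without siMbnl KO replicate 1. Of 13 trophoblast markers 5 rose and 4 fell (2 with only the 4 libraries in the fit), near the shares of all genes. Tfap2c rose by 1.67 and Tead4 by 1.45, Peg10 changed by -0.86, and Cdx2 was below 0.5 FPKM throughout.

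**Figure D3:**
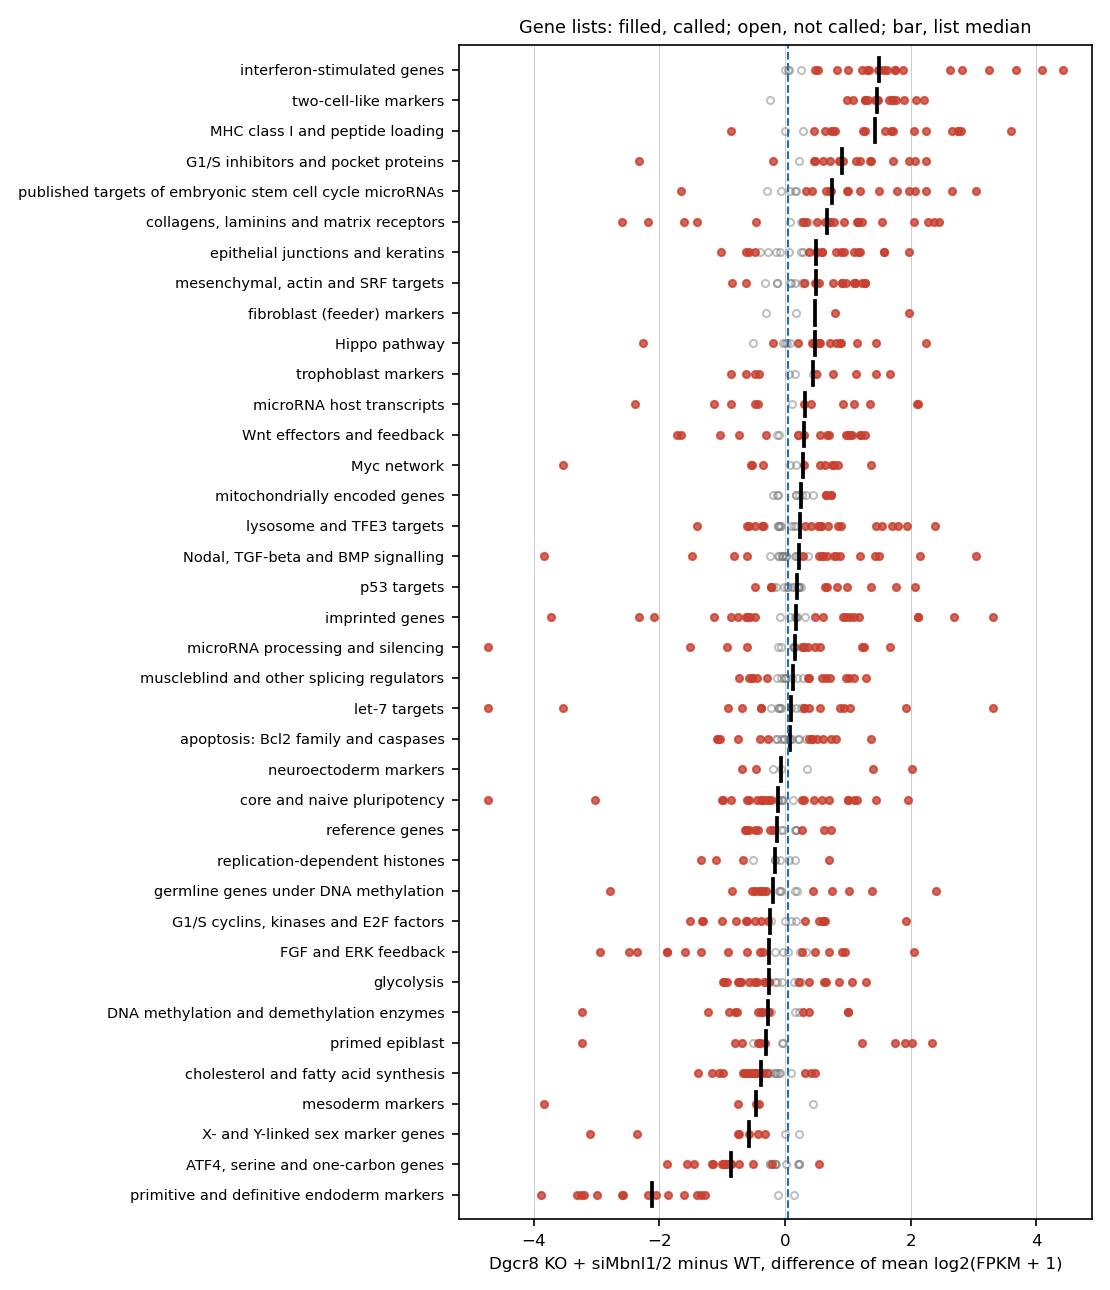
Each of the 38 gene lists on a row, with 1 point per member that passed the filter, placed at its siMbnl KO minus WT difference (log2); filled points were called, open ones were not, the black bar is the list median and the dashed line the median of all genes, 0.04. Interferon-stimulated genes stand at the top with a median of 1.49 and endoderm markers at the bottom with -2.12.

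Genes of chromosome 8 were lower as a group. Of 707 tested there, 391 (55.3%) fell and 105 (14.9%) rose, with a median of -0.406, whereas over all other chromosomes 26.4% fell, 33.7% rose and the median was 0.056. No other autosome had a median outside -0.038 to 0.143. Relative to the WT mean, the median gene of chromosome 8 stood at -0.399 and -0.389 in the siMbnl KO libraries, and at 0.013 and -0.013 in the WT libraries. The other knockout libraries were alike, with -0.365 and -0.467 in mock KO and -0.473 and -0.468 with miR-294. Between siMbnl KO and mock KO the chromosome 8 median was 0.005. Among genes of at least 10 FPKM the chromosome 8 median was -0.540, against -0.072 elsewhere. The shift was seen along the chromosome: in 13 windows of 10 Mb the medians ran from -0.520 to -0.041, all below 0, the window with fewest genes holding 13. Copy number was not measured, and its part in these values was not tested. Lists that hold chromosome 8 genes were also counted without them; the medians that moved most were those of the lysosome list, from 0.24 to 0.46, and of the neuroectoderm list, from -0.06 to 0.35 (0.166 with chromosome 8 but without siMbnl KO replicate 2).

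Y-linked genes were lower as well. All 5 tested genes of chromosome Y fell. Eif2s3y, a translation factor subunit, was at 24.1 and 23.1 FPKM in WT and 3.01 and 1.03 in siMbnl KO, and Uty, a histone demethylase relative, at 6.49 and 6.85 in WT and 0.6602 and 0.342 in siMbnl KO. The helicase gene Ddx3y fell less, from 6.82 and 7.32 to 5.58 and 3.41 FPKM (adjusted p = 0.0218, and up to 0.101 over the alternatives). Mock KO had 3.23 and 2.63 FPKM of Eif2s3y and 0.673 and 0.847 of Uty. The X-linked partner Eif2s3x fell by 0.76, and Xist was below 0.2 FPKM in every library of the comparison. Of the 9 sex-linked marker genes that passed, 7 fell (4 without WT replicate 2).

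**Figure D4:**
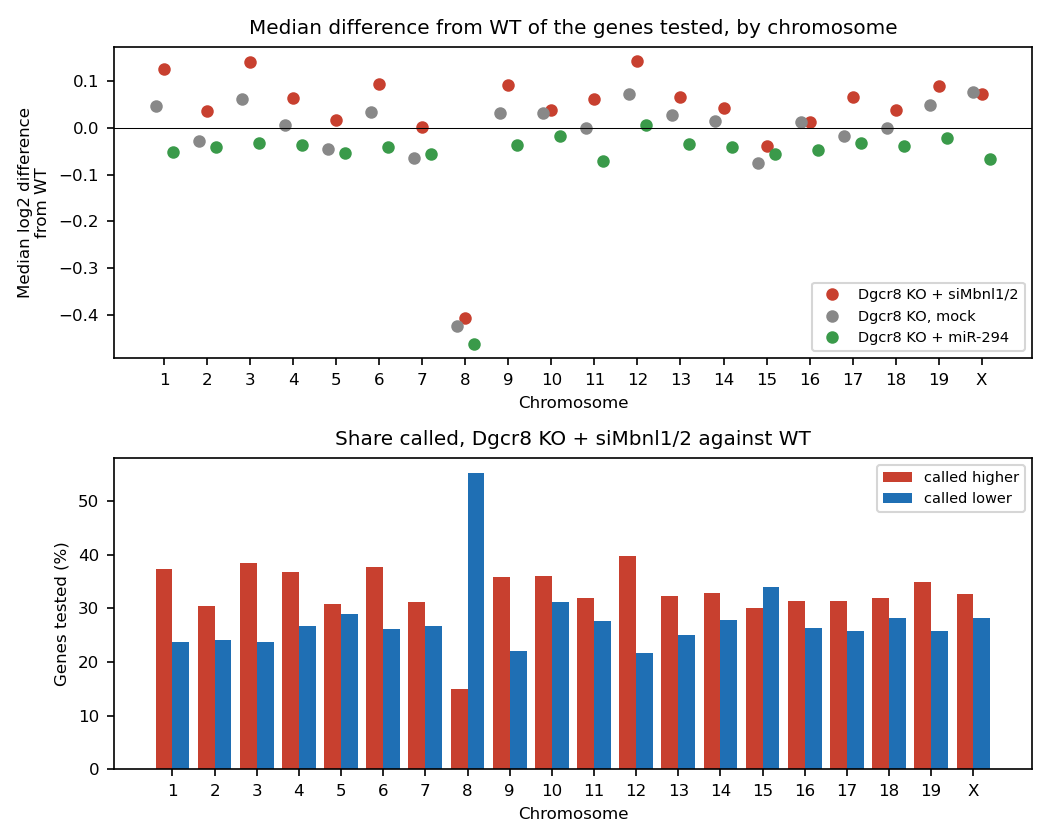
Top, median difference from WT (log2) of the tested genes of each autosome and chromosome X. Points are siMbnl KO, mock KO and miR-294-treated KO, all set against the same WT libraries. Chromosome Y, with 5 tested genes (median -0.769 in siMbnl KO), and the mitochondrial genes are not drawn. Bottom, percent of tested genes called higher or lower in siMbnl KO. Chromosome 8 stands apart from the others drawn in both panels, with a median of -0.406 and 55.3% called lower.

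Interferon-stimulated genes and genes of antigen presentation rose together. Of 39 interferon-stimulated genes 24 passed the filter, of which 20 rose and none fell (median 1.49); of the 15 that did not pass, 13 had a higher mean in siMbnl KO. Such genes passed mostly through the knockout cells, so the count describes rather than tests the list. Gbp2, a guanylate-binding protein, was at 0.159 and 0.212 FPKM in WT, 5.82 and 5.34 in mock KO and 11.7 and 8.896 in siMbnl KO. Isg15, a ubiquitin-like modifier, rose from 0.0535 and 0.143 to 2.81 and 3.23 FPKM. Of the transcription factors that drive these genes, Irf9 rose by 1.00, Stat2 by 0.53 and Irf1 by 2.81, the last from 5.04 and 4.31 to 38.3 and 38.9 FPKM. Of 20 genes of MHC class I and peptide loading that passed, of 25, 17 rose and 1 fell, with a median of 1.43. Here too members low in WT could pass the filter through siMbnl KO, so the count describes rather than tests the list. Without a filter the median over 25 genes was 0.794, and at a mean of at least 5 FPKM 8 of 9 rose (median 1.683). Erap1, which trims peptides, rose from 0.508 and 0.553 to 10.2 and 8.64 FPKM, Tapbp, which edits them, from 8.08 and 9.38 to 59.2 and 69.4, and the transporter Tap1 by 1.27. The classical heavy chains H2-K1 and H2-D1 rose by 0.46 and 0.64 and the light chain B2m by 0.73. Without an siRNA these genes were also above WT: mock KO had 35.9 and 32.8 FPKM of Irf1 and 63.7 and 62.3 of Tapbp. None of the interferon or MHC members was called between siMbnl KO and mock KO.

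Because these genes moved together, their promoters were searched for the letters of an interferon response element, GAAANNGAAA, on either strand from 250 bases before to 50 bases after the gene start (RefSeq, GRCm38.p6). It was present in 311 of 9307 tested genes with a promoter sequence (3.34%), in 11 of 19 tested interferon-stimulated genes (57.9%) and in 5 of 18 tested MHC and loading genes (27.8%). Among the members that rose the shares were close to these, 9 of 15 (60%) and 5 of 15 (33.3%). Over all tested genes, it was in 5.44% (49 of 901) of those that rose at least 2-fold and in 4.23% (15 of 355) of those that fell that far. Stretches around the match, in capitals, are given for 4 genes that rose, to show where the letters lie, on the strand of the gene; on the opposite strand the match reads as its reverse complement.
Isg15, chr4:156200855-156200904, minus strand: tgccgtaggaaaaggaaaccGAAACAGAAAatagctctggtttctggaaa
Gbp2, chr3:142620584-142620633, plus strand: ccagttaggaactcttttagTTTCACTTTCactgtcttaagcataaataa
B2m, chr2:122147528-122147577, plus strand: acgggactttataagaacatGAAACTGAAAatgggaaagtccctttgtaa
Irf2, chr8:46739495-46739533, plus strand: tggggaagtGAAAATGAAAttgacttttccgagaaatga
A match describes letters in this window and says nothing of binding by a factor.

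The 4 signalling lists held genes that rose and genes that fell. In the Nodal, TGF-beta and BMP list 13 of 30 rose and 4 fell. Apart from Lefty1 and Bmp4, the BMP target Id2 rose from 11.3 and 10.1 to 56.9 and 45.6 FPKM and Lefty2 from 7.58 and 6.71 to 28.5 and 16.9, while the ligand Nodal (31.4 and 31.1 against 30.5 and 29.95 FPKM) did not pass the test. In the FGF and ERK list 11 of 22 fell and 6 rose. Etv4, a transcription factor induced by ERK, fell from 153 and 148 to 18.3 and 19.2 FPKM. The feedback genes Dusp4 (-2.35, on chromosome 8) and Spry4 (-1.88) fell. The ligand Fgf4 was at 94.4 and 94.5 in WT and 114 and 114 FPKM in siMbnl KO, a small increase (0.27, adjusted p = 0.00391). Fgf17 fell from 11.05 and 11.7 through 2.82 and 2.35 in mock KO to 1.43 and 1.02 FPKM, and the last step was also called (-0.69 ± 0.12, adjusted p = 0.0483, lost with weighted libraries). Among 21 Wnt genes 12 rose (10 with only the 4 libraries in the fit, and 10 under quantile normalization) and 5 fell. Axin2 and Dkk1, feedback inhibitors induced by Wnt signalling, fell (-1.72 and -1.66), while the effector Tcf7l2 and the acyltransferase Porcn rose by 1.27 and 1.21. In the Hippo list 14 of 21 rose and 2 fell (1 without either WT replicate); besides Lats2, the upstream regulator Nf2 rose from 47.4 and 48.7 to 100.2 and 116 FPKM. Amot, an X-linked scaffold that binds Yap1, fell from 5.76 and 5.56 to 0.356 and 0.411 FPKM.

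Adhesion, matrix and cytoskeletal genes were more often higher. Epithelial junction and keratin genes rose in 14 of 25 and fell in 4. Dsp, desmoplakin, rose from 2.62 and 2.498 to 12.8 and 13.03 FPKM and the claudins Cldn3 and Cldn7 by 1.58 and 1.57, whereas the keratin genes Krt8 and Krt18 fell by 0.62 and 0.48. Cdh1, E-cadherin, was at 105 and 106 FPKM in WT and 103 and 96.04 in siMbnl KO and did not pass the test. Mesenchymal genes and targets of the actin-sensing factor SRF rose in 14 of 24 and fell in 2 (1 without either WT replicate). Vim, vimentin, rose from 87.6 and 79.9 to 164 and 201 FPKM, Fn1, fibronectin, from 66.6 and 68.05 to 139 and 192, and Cdh2, N-cadherin, by 1.23. Of 28 collagens, laminins and matrix receptors 18 rose and 5 fell. The proteoglycans Gpc3 and Sdc4 rose by 2.46 and 2.37 and the integrin Itgav by 2.27, while Lama1, a laminin of basement membranes, fell from 42.95 and 44.5 to 5.91 and 6.85 FPKM. Fibroblasts could be carried over from feeder layers, so their markers were measured beside these genes. Only 4 of 20 passed the filter, and 2 rose; of the 16 others, 9 had a higher and 6 a lower mean in siMbnl KO. The list summed to between 41.6 and 42.3 FPKM in WT and between 139.9 and 147.9 in siMbnl KO, most of it Fstl1, at 33.3 and 33.6 in WT and 132 and 137 in siMbnl KO. The other that rose was the collagen gene Col5a1, from 1.099 and 1.06 to 2.18 and 3.06 FPKM (0.79 ± 0.15, adjusted p = 0.00265). Of the defining markers, Col1a1 was at 0.4998 and 0.307 FPKM in WT and 0.107 and 0.0957 in siMbnl KO, Col1a2 at 0.246 and 0.4999 in WT and 0.00627 and 0.0217 in siMbnl KO, and Lum and Postn were at 0 or below 0.02 FPKM in each of the 4 libraries. The part of such cells in the matrix genes was not tested.

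Genes of serine and one-carbon metabolism and of lipid synthesis were mostly lower, and other metabolic lists moved both ways. Of 28 tested genes of the ATF4, serine and one-carbon list 18 fell and 1 rose, with a median of -0.86. Phgdh, the first enzyme of serine synthesis, was at 141 and 134 FPKM in WT, 65.1 and 52.8 in mock KO and 33.7 and 39.8 in siMbnl KO. Slc7a5, an amino acid transporter on chromosome 8, fell by 1.57 and Shmt1, a one-carbon enzyme, by 1.46. The transcription factor Atf4 itself fell from 252 and 240.4 to 134 and 115 FPKM and its target Asns, asparagine synthetase, from 268 and 272 to 133 and 146. Of 28 genes of cholesterol and fatty acid synthesis 17 fell and 3 rose. Msmo1 (-1.39, on chromosome 8), Lss (-1.16) and Scd1 (-1.05) were among those that fell. Among 27 glycolytic genes 13 fell and 7 rose, with Aldoa, aldolase, from 906 and 862 to 423 and 471 FPKM and Ldhb, a lactate dehydrogenase subunit, rising by 1.29. Of 13 mitochondrially encoded genes 4 rose, near the share of all genes (32.7%), and none fell. mt-Co1, a subunit of cytochrome oxidase, was at 4161 and 4410.5 FPKM in WT and 7487 and 6105 in siMbnl KO. Among 30 lysosomal genes and TFE3 targets 15 rose and 6 fell. Lamp2, a lysosomal membrane protein, rose from 12.1 and 12.9 to 66.6 and 73.00 FPKM, and the lysosomal protein Grn by 1.71. Of 25 genes of the Bcl2 family and caspases 8 rose and 6 fell, near the shares of all genes. Of 22 p53 targets 7 rose, also near the share of all genes, and 3 fell (1 with only the 4 libraries in the fit). Among the p53 targets, Rrm2b, a ribonucleotide reductase subunit, rose by 1.76 and Pmaip1, a death-promoting Bcl2 relative, by 1.37. Of 16 reference genes 8 fell and 3 rose (5 fell without either WT replicate); Actb was at 1259.7 and 1207 FPKM in WT and 1289 and 1128 in siMbnl KO, and Rplp0 fell by 0.64.

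DNA methylation enzymes fell more often than they rose, and imprinted genes changed both ways. Of 17 enzymes 10 fell and 4 rose (6 fell under quantile normalization, and 2 rose without WT replicate 2). Besides Dnmt3a, its cofactor Dnmt3l fell from 239.9 and 234 to 119 and 84.4 FPKM and Dnmt3b by 0.79, while the demethylase Tet3 rose by 1.01. Of 20 germline genes controlled by methylation 8 fell and 5 rose (4 fell without either WT replicate). The 3 named homeobox genes of the X-linked Rhox cluster moved apart: Rhox5 fell from 125 and 111 to 10.5 and 24.6 FPKM, and Rhox6 and Rhox9 rose by 1.38 and 2.41. Members of that cluster are similar in sequence, and how their shared reads were assigned is not given in the sources used here. Of 28 imprinted genes 11 rose and 11 fell. Plagl1, a transcription factor, rose from 1.61 and 1.53 to 24.8 and 23.96 FPKM and the antisense transcript Nespas by 2.69, whereas Phlda2, Cdkn1c and H19 fell, H19 from 15.6 and 15.3 to 4.504 and 9.34. Of 10 replication-dependent histone genes that passed, of 28, 3 fell and 1 rose; their messages lack a poly(A) tail.

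Genes that mark rare totipotent-like cells were higher in siMbnl KO, with a wide spread and mostly in replicate 1. The list summed to 152.1 and 153 FPKM in WT and to 372.3 and 181 in siMbnl KO replicates 1 and 2. Members could pass the filter through siMbnl KO, so the count that follows describes rather than tests the list. Of 16 that passed the filter, of 20, 15 rose and none fell (median 1.47). Without siMbnl KO replicate 1 the median was 0.855 and 1 gene fell, and without replicate 2 it was 2.135. The count that rose was 8 and 9 without WT replicate 1 and 2, and 7 with only the 4 libraries in the fit. Zscan4c, a gene of a telomere-elongating family, was at 4.55 and 4.58 FPKM in WT, 5.33 and 4.99 in mock KO, 6.51 and 7.09 with miR-294 and 29.3 and 9.21 in siMbnl KO. Tcstv1 was at 1.13 and 1.14 FPKM in WT, 2.21 and 2.19 in mock KO, 3.38 and 3.84 with miR-294 and 15.2 and 5.05 in siMbnl KO. In both genes the siMbnl KO libraries differed from each other by more than the lower one differed from mock KO. Against mock KO the median of the list was 1.36 and none of its genes was called (Tcstv1: 1.63 ± 0.38, adjusted p = 0.0871). These are families of near-identical copies, so the values of single members are uncertain.

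**Figure D5:**
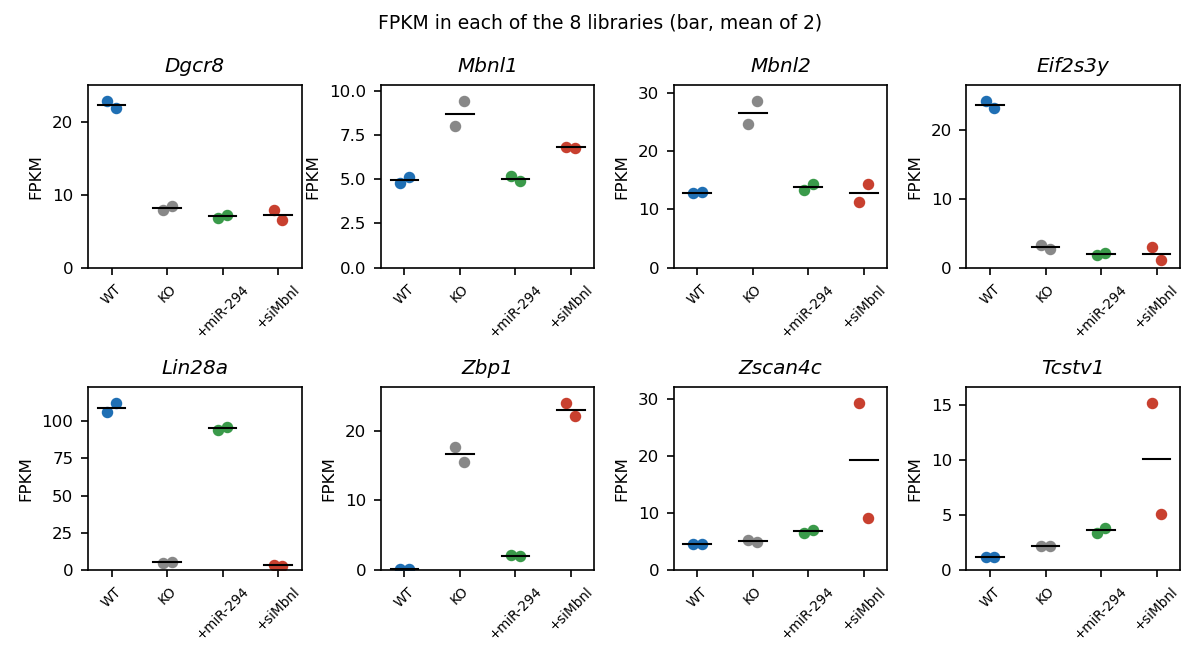
FPKM of 8 genes in each of the 8 libraries, from 0, with a bar at the mean of each pair. With siMbnl1/2 the Mbnl2 values lie around those of WT, Eif2s3y is low in the 3 knockout groups, Lin28a and Zbp1 are closest to WT with miR-294, and Zscan4c and Tcstv1 are highest in siMbnl KO replicate 1.

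Most of what separated siMbnl KO from WT was not called between siMbnl KO and mock KO. Over the same 12860 genes that second contrast called 143 (1.11%), 113 higher and 30 lower, while 2395 had an unadjusted p under 0.05. Both contrasts use the siMbnl KO libraries. Without WT replicate 1 or 2, which enter it only through the shared spread, it called 18 and 21, and without siMbnl KO replicate 1 or 2 it called 229 and 685. With libraries weighted by their group's spread it called 0 (1301 with an unadjusted p under 0.05), and with the replicate block 32. Of the gene lists, the p53 targets and the ATF4, serine and one-carbon list held the most of its 143 calls, 3 each. Their medians against mock KO were 0.34 over 22 genes and -0.28 over 28, against 0.04 for all genes. Genes described here that the contrast called include Mbnl2, Ephx2, Cdkn1a and Fgf17. Another, chosen after its values were seen, is Cd109, a TGF-beta co-receptor, at 0.229 and 0.286 FPKM in WT, 4.62 and 4.65 in mock KO and 7.35 and 9.399 in siMbnl KO. In Ephx2, Cd109, Cdkn1a and Fgf17 the siMbnl KO values lay farther from WT than the mock KO values did. Fgf17 lay below WT and the other genes above it. The p53 regulator Mdm2 was at 86.5 and 87.97 FPKM in WT, 51.5 and 50.2 in mock KO and 79.3 and 70.03 in siMbnl KO, so that it stood nearer WT with the siRNA (0.54 ± 0.082 against mock KO, adjusted p = 0.0375).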

How the data were processed

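RNA sequencing of polyadenylated RNA (so labelled; the design text says total RNA) was deposited by the authors as a table of FPKM per gene and library. Per the submitters' processing notes the tools were STAR 2.5.0 and Cufflinks 2.2.1, with genome build mm10; the annotation release is not given in the sources used here. Of the table's columns, 0 belonged to no sample here. Reads were not reprocessed and depth is unknown.

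The scale was log2(FPKM + 1), and genes with a mean of at least 1 FPKM over the WT and siMbnl KO libraries were tested. In R 4.3.3, limma 3.58.1 (with statmod 1.5.0; tables read by data.table in version 1.17.8) fitted 4 group means over all 8 libraries, since 2 per group give few degrees of freedom, so that mock KO and miR-294 libraries entered only through the spread. Variance was moderated with a trend and robustly. Calls used two-sided Benjamini-Hochberg adjusted p-values under 0.05. The script was tested on simulated data. The members and lists (38 lists, 822 symbols, from general knowledge) were chosen with earlier results of these data known. Named genes are Dgcr8 and the Mbnl genes, the 12 largest called changes each way and the 4 most changed called members of each list. For the 12, the WT and siMbnl KO libraries had to lie apart, and predicted genes, clone names, pseudogenes and small RNAs were left out. Other list members are given as descriptions. Seed sites were counted in 3′ UTRs of GENCODE M21 transcripts. Of the microRNAs planned for other tissues, miR-122 and miR-124 were not analysed here; miR-142 and miR-223 took their place, and miR-206 stood for the miR-1 seed, a choice made after the tables were seen. Leaving out chromosome 8 was also chosen after seeing the data. Some genes that the naming rule admits are not reported here.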

Additional observations from a re-analysis of the deposited data

How the results depend on the processing

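The number of genes called between siMbnl KO and WT lay between 5818 and 8517 over the alternatives, against 7802: 5893 and 5924 without WT replicate 1 and 2, 7799 and 7499 without siMbnl KO replicate 1 and 2, 7031 with only the 4 libraries in the fit, 7208 with weighted libraries and 7306 without chromosome 8. Median-of-ratios scaling gave 4036 higher and 3946 lower, and quantile normalization 3521 higher and 4013 lower, and a mean FPKM of at least 5 gave 2814 and 3004, against 53.9% of calls higher as reported. Increases of at least 2-fold numbered 761 at a mean FPKM of at least 5, a filter that tests fewer genes, against 1246. The contrast of siMbnl KO with mock KO called 143 genes, 61 without a filter, 0 with libraries weighted, 32 with the replicate block and between 18 and 685 without single replicates; the cause was not tested. Chromosome 8 less the others was -0.462, with -0.429 under quantile normalization and -0.47 to -0.428 without single replicates. The miR-290 site class less the rest was 0.241, with 0.169 under quantile normalization and 0.228 to 0.243 without single replicates. Under quantile normalization the median of the pluripotency list was 0.038 and that of the imprinted list -0.086, both of the opposite sign to the values reported, and that of the apoptosis list -0.042. Of 150 named genes 149 were called, and 142 of these kept the call in each of the 14 alternatives that tested them. The filter at a mean FPKM of at least 5 left some untested, Amot and Axin2 among them. None of the called genes changed sign. Mbnl2, which was not called, stood above WT without siMbnl KO replicate 1. The calls lost were those of Mbnl1, Mesp2, Eomes, Sox1, Zscan4f, Zscan4e and mt-Nd2. Same-numbered libraries of the groups deviated together at r = 0.0458, so the numbers are not taken to pair them; a replicate block gave 7314 calls. Depth is unknown, which limits statements on genes near 0.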
